A study of Mus musculus with 24 samples.

Results

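The genes described here are 39 genes of hepatic stellate cells and of the extracellular matrix that scarring liver lays down, chosen by name for their known roles in collagen fibrils, basement membranes, proteoglycans, elastic fibres, matricellular signalling, contraction, growth factor signalling and stellate cell quiescence. They were measured on an Illumina mouse expression array in 24 livers, 12 from mice given as knockouts of DNMT1 and 12 from controls. The groups were knockout and control livers at week 4, at week 8 and at week 20, with 4 arrays in each of the 6 groups. The labels give the genotype, the week and the tissue, and do not say from which point the weeks count. The cells in which the gene was removed, the driver used, the sex and the strain are not given by the labels, and no label states that each array is its own mouse. The spread behind every p-value is therefore that between arrays within a group, pooled over the 6 groups of 4, whatever their source. Replicates carry the numbers the labels give them, which skip some, and values by array follow the order of those numbers. Of the 39 genes, 37 had a probe and 33 could be tested, out of 10733 genes tested in the whole series. Col6a3 and Loxl2 had no probe. Col5a2, Fbln5 and Thbs1 lay above background on 0 arrays and Postn on 1 array, and these 4 were not tested.

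Hepatic stellate cells are the liver's pericytes. In healthy liver they lie between hepatocytes and sinusoidal endothelium and store retinyl esters, and after injury they turn into contractile, collagen-secreting myofibroblasts driven by transforming growth factor beta and platelet-derived growth factor. Fibroblasts around the portal tract, smooth muscle of the vessels, endothelium and mesothelium make some of the same transcripts. DNMT1 copies methyl marks at CG dinucleotides onto newly made DNA. In RNA of whole liver, fewer cells of a type and less RNA per cell cannot be told apart.

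Intensities below are the authors' normalized values. A probe was counted as above background over an intensity of 16.3, and a gene was tested where its probe passed that value on at least 4 arrays. Just inside this rule were Fmod, above background on 5 arrays, and Tagln, on 6. Just outside it was Postn, periostin, with 19.3 in 1 control liver of week 20. For Col1a1, Col6a2, Eln, Lox and Tagln fewer than 4 control arrays were above background. These genes were kept only through their knockout arrays, and their calls as higher in knockout livers carry that limit at every week. Differences are given on the log2(intensity + 16) scale with their SE and with 4 arrays a group. This scale understates the change of dim genes. Where no array of one group was above background, the difference is also given as a fold of at least the stated size, which sets the brighter group's mean against the background threshold. Adjusted p-values are limma's, adjusted over 10733 genes, or over all kept probes where a further probe of a gene is given. The words "higher", "lower", "rose" and "fell" without further comment mean an adjusted p under 0.05. Where knockout and control livers of the same week are compared, "rose", "rise" and "fell" describe knockout relative to control livers. They do not then mean a change over time.

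Of the stellate genes that define the cell type, Lrat, Reln and Des were measurable in both genotypes, above background on 24 arrays. Pdgfrb was above background on 15. These were 3, 4 and 4 knockout arrays at weeks 4, 8 and 20, and 1, 1 and 2 control arrays. Dnmt1, the targeted gene, was read by 1 probe, with intensities of 52.3 to 105.5 in knockout livers and 71.3 to 118 in control livers at week 4. Its log2 differences were -0.25 ± 0.19, -0.30 ± 0.19 and -0.58 ± 0.19 at weeks 4, 8 and 20 (adjusted p = 0.364, 0.20 and 0.0737). The sources used here do not place this probe relative to the deleted stretch, so it does not check the deletion. Between 12182 and 12268 probes an array were above background. Control week 20 replicates 3 and 4 stood apart on the third principal component, at 34.8 and 35.1, against -10.8 and -8.62 for replicates 1 and 2. Knockout week 8 replicate 4 read -10.8 for the Y-linked Eif2s3y, where replicates 1 to 3 read 544 to 600.1. Without control week 20 replicates 3 and 4 the fit called 16 of the 33 genes at week 4, 27 at week 8 and 2 at week 20. Of the 2 at week 20, Ecm1 was not called with all arrays. Without knockout week 8 replicate 4 the fit called 27 at week 8.

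The promoter sequences that follow are shown because CG dinucleotides are what DNMT1 acts on and because the genes differed widely in how many they hold. They are the 250 bases before the gene's start, 5′ to 3′ on the gene's strand, from RefSeq on build GRCm38.p6, which held promoters for 26 of the 39 genes. Col3a1 (chr1:45311288-45311537, plus strand) holds no CG and Reln (chr5:22344706-22344955, minus strand) holds 37, and both genes were higher in knockout livers at week 8. Thbs2 (chr17:14694263-14694512, minus strand) had the second largest rise of that week. Lrat (chr3:82903975-82904224, minus strand), the retinol-storing enzyme of quiescent stellate cells, was lower in knockout livers at weeks 4 and 20. Capitals mark each CG.
Col3a1: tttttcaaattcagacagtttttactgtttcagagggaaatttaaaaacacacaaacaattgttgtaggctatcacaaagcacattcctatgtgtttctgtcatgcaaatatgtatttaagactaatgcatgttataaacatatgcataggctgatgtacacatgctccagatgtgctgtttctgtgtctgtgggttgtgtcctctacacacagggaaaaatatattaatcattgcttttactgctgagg
Thbs2: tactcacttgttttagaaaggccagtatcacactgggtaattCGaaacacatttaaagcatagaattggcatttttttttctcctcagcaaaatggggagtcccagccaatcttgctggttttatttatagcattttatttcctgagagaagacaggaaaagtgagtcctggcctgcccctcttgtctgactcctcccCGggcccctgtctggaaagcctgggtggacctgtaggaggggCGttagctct
Lrat: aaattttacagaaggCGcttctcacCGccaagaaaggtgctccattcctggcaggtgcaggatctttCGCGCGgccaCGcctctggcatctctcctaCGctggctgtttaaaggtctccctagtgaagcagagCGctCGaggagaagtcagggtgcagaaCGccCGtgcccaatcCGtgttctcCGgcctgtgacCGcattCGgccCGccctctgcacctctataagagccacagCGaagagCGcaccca
Reln: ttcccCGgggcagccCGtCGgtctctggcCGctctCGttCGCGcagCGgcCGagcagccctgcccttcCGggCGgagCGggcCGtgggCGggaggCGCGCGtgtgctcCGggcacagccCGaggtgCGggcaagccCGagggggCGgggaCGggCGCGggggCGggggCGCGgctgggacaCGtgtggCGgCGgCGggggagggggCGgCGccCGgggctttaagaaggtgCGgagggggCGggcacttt

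CG reads the same on both strands. Thbs2 holds 3 and Lrat 18. Of all 32851 promoters in the table, 92.1% hold at least 1 CG, the median is 6 and the quartiles are 2 and 16. Of the genes higher in knockout livers at week 8, 17 had promoters in the table, 18 in number, with a median of 8 and a range of 0 to 37. The 6 tested genes that were not called at week 8 had a median of 9 and a range of 1 to 18. Genes with few CGs thus stood on both sides of the call. A relation of CG count to the call was not tested. Col4a1 with 31, Col5a1 with 28, Col4a2 with 26 and Tgfb1 with 21 were among the CG-rich promoters of genes that rose, and Col6a1 with 3, Sparc, Acta2 and Pdgfra with 4 each were among the CG-poor. The letters TATAAA, searched on both strands, were present in 5 of the 29 member promoters (Col3a1, Thbs2, Vim, Ecm1 and 1 of the 2 promoters of Postn), against 12.4% of all promoters. These counts describe the sequence, and methylation was not measured in these files. Promoters of Col1a1, Col5a2, Col14a1, Lum, Dcn, Eln, Lox, Loxl1, Loxl2, Thbs1, Tagln, Pdgfrb and Ctgf were not used here.

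The first comparison sets knockout against control livers at week 4. Knockout livers had more transcript of the collagens Col1a1, Col1a2, Col3a1, Col4a1 and Col6a1, and more lumican, decorin and biglycan. The partner chains Col4a2 and Col6a2 did not pass the threshold. Of the 4 quiescence genes, Lrat and Ecm1 were lower, while Reln, higher in the mean, and Ngfr, lower in the mean, did not pass. Of the 33 genes 13 were higher and 2 lower, against 14.8% and 12.4% of all genes tested (27.2% in either direction), and 13 did not overlap with controls on the higher side, against 15.8% of all genes, and 1 on the lower side, against 14.1%. At an unadjusted p under 0.05 there were 20 genes. The median difference was 0.57, against -0.012 over all genes.

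At week 8 more of the genes differed, and in 1 direction. Knockout livers had more transcript of 9 of the 10 collagen genes tested, of 3 of the 4 small leucine-rich proteoglycans, of 5 elastic fibre and cross-linking genes (all that were tested), of 3 matricellular genes, of smooth muscle actin, transgelin and vimentin, of reelin, and of Tgfb1 and both PDGF receptors. Of the 33 genes 27 were higher and 0 lower, against 24.9% and 24.0% of all genes tested (48.9% in either direction). Groups did not overlap for 27 genes on the higher side, against 22.5% of all genes. Both counts of 27 include Col1a1, Col6a2, Eln, Lox and Tagln, which were kept only through their knockout arrays. The median difference was 1.39, against -0.067 over all genes. Col15a1, Fmod, Des, Lrat, Ngfr and Ecm1 were not called.

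At week 20 few genes differed. Lum was higher and Col4a2 and Lrat were lower, 1 and 2 of 33, against 3.44% and 2.23% of all genes (5.66% in either direction). At an unadjusted p under 0.05 there were 17 genes. Knockout arrays lay above all control arrays for 4 genes (Lum, Dcn, Loxl1 and Pdgfra), against 5.60% of all genes, and below them for 1, against 4.48%. The median difference was 0.39, against 0.001 over all genes. Without control week 20 replicate 1 the count of called genes was 5, and without control week 20 replicates 3 and 4 it was 2. These 2 were Lum and Ecm1, which was newly called as lower (adjusted p = 0.0338 by limma). The calls of Col4a2 and Lrat were both lost without those arrays (adjusted p = 0.533 and 0.132).

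**Figure D1:**
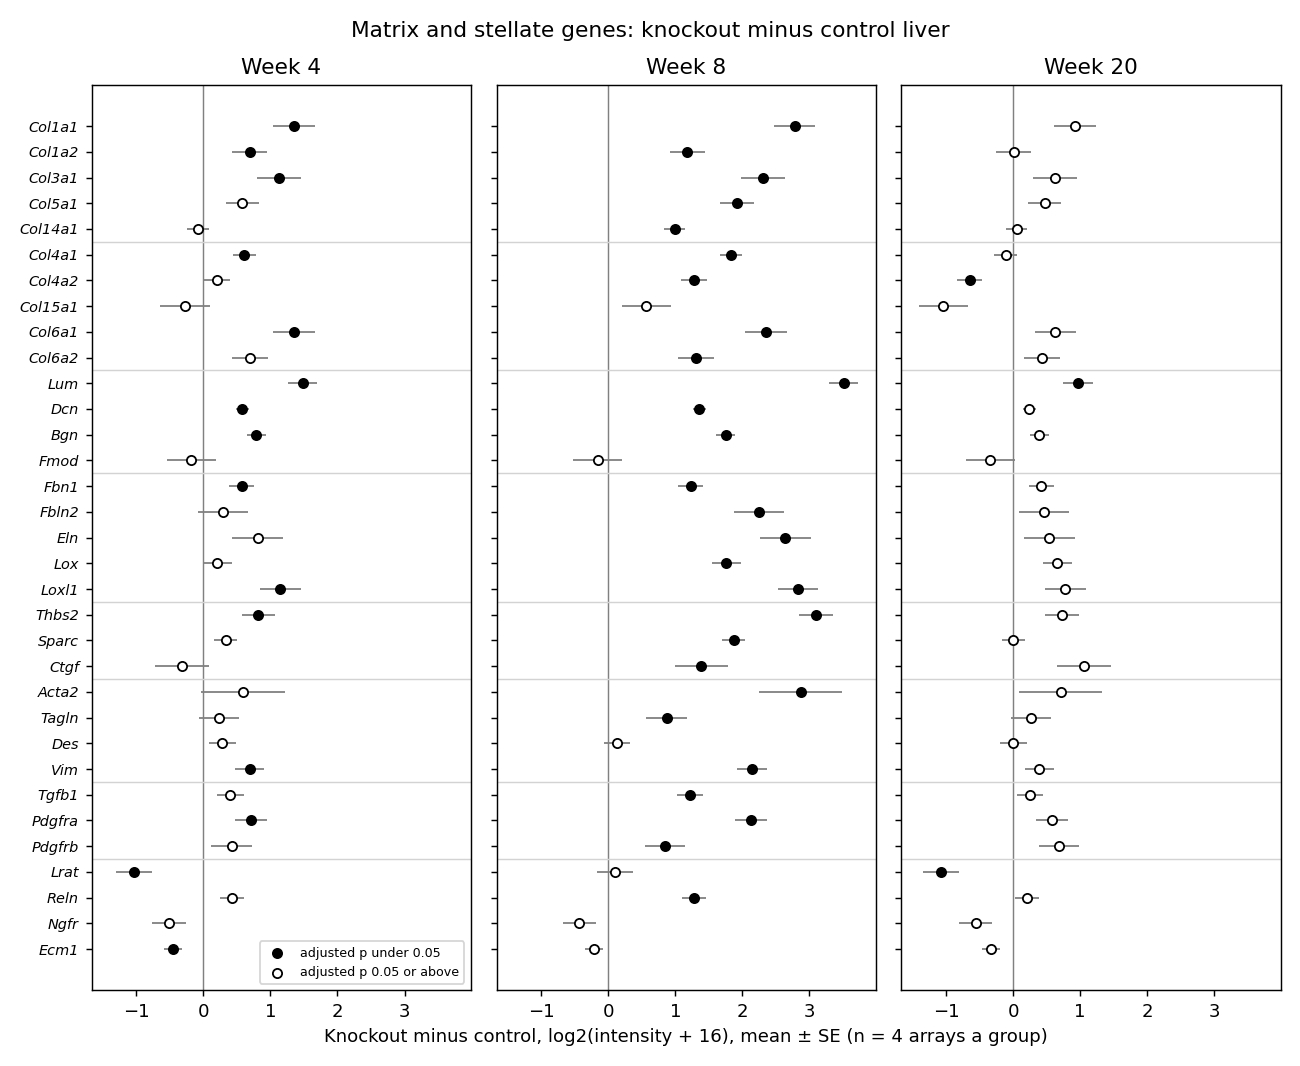
Knockout minus control difference of each of the 33 tested genes at weeks 4, 8 and 20 (panels), on the log2(intensity + 16) scale, with bars of 1 SE (n = 4 arrays a group) and filled points for an adjusted p under 0.05. At week 8, 27 points are filled and lie right of 0, at week 4 there are 13 to the right and 2 to the left, and at week 20 there are 3 filled points.

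The fibrillar collagens are the bulk of scar matrix. Col1a1, the main chain of type I collagen, had intensities of 96.1, 51.2, 44.0 and 85.5 in knockout livers at week 4, against 0.545, 14.0, 21.3 and 41.9 in control livers. At week 8 the knockout livers had 106, 96.8, 149 and 129.9, against 7.33, 8.87, -9.20 and -9.65 in control livers. No control array of week 8 was above background and the groups were far apart. The log2 difference was 1.35 ± 0.31 at week 4 and 2.78 ± 0.31 at week 8 (adjusted p = 0.00182 and 6.5e-08), the last at least 7.26-fold. At week 20 the knockout livers had 21.4, 9.39, 34.9 and 23.4, against 14.5, -3.26, 2.84 and 0.168 in control livers, a difference of 0.92 ± 0.31 (adjusted p = 0.0789). With an offset of 1 the week 4 call was lost (adjusted p = 0.0518). The week 20 difference passed the threshold without control week 4 replicate 1 (adjusted p = 0.0488) and without control week 20 replicate 1 (adjusted p = 0.0325).

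Col1a2, its partner chain in type I collagen, had intensities of 43.3 to 67.8 in knockout livers and 21.3 to 36.7 in control livers at week 4, and 29.5 to 59.5 in knockout livers and 0.731 to 16.9 in control livers at week 8. The differences were 0.69 ± 0.26 (adjusted p = 0.0491) and 1.18 ± 0.26 (adjusted p = 4.9e-04). The week 4 value sits at the threshold, and 19 of the alternatives tried, 15 of them the removal of a single array, end the call, with an adjusted p of up to 0.311. At week 20 the difference was 0.01 ± 0.26.

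Col3a1, the chain of type III collagen that forms fibrils together with type I, had 132, 158, 154 and 250.5 in knockout livers at week 4, against 38.3, 59.0, 86.6 and 108 in control livers. The week 8 intensities were 101, 122, 92.8 and 79.4 in knockout livers, against 8.67, 7.67, 14.1 and -1.96 in control livers, none of which was above background. The difference was 1.13 ± 0.33 at week 4 and 2.31 ± 0.33 at week 8 (adjusted p = 0.0119 and 2.8e-06), the last at least 5.98-fold. The week 4 call was lost with an offset of 1 (adjusted p = 0.319), with a floor of 1 and quantile normalization (adjusted p = 0.307), without control week 4 replicate 1 (adjusted p = 0.057) and without knockout week 4 replicate 5 (adjusted p = 0.0547). At week 20 the 4 knockout livers spread widely, with 45.4, -1.68, 31.3 and 6.81, against 4.00, 4.34, -9.90 and 12.8 in control livers (difference 0.62 ± 0.33, adjusted p = 0.28). A second Col3a1 probe gave 1.26 ± 0.21 at week 4 and 1.29 ± 0.21 at week 8, past the threshold at both. This probe was above background on 8 arrays, all of them knockout arrays of weeks 4 and 8. It was thus kept only through the groups in which it was high.

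Col5a1, the chain of type V collagen that sets fibril diameter, had 340.2, 264, 199 and 336 in knockout livers at week 8, against 65.3, 49.6, 66.0 and 67.2 in control livers, a difference of 1.92 ± 0.25 (adjusted p = 5.5e-07). Its arrays overlapped at week 4, with 252 to 501 in knockout livers and 175 to 304 in control livers (0.58 ± 0.25, adjusted p = 0.0844). Col14a1, a collagen that binds to the fibril surface, had a week 4 difference of -0.08 ± 0.16 (adjusted p = 0.769). At week 8 it had 131 to 172 in knockout livers and 51.4 to 83.0 in control livers, a difference of 0.99 ± 0.16 (adjusted p = 1.4e-05). Over the 5 fibrillar and associated collagens tested, 3 were higher at week 4, 5 at week 8 and 0 at week 20.

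Type IV collagen builds basement membrane, which in injured liver fills the space beneath the sinusoidal endothelium. Col4a1 had 2123, 2300, 1721 and 2404 in knockout livers at week 4, against 1207, 1243, 1639 and 1501 in control livers. In week 8 livers the values were 1469, 1876, 1648 and 1688 in knockout livers, against 457, 451, 512 and 409.7 in control livers. The groups were separate at both weeks, by 0.61 ± 0.17 (adjusted p = 0.00774) and 1.83 ± 0.17 (adjusted p = 2.4e-09). At week 20 the values were 579, 358, 351 and 374 in knockout livers and 376, 338, 499 and 596 in control livers, which overlapped (-0.11 ± 0.17, adjusted p = 0.744).

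Col4a2, its partner chain, is read from a promoter it shares head to head with Col4a1. Its differences at weeks 4, 8 and 20 were 0.20 ± 0.19, 1.28 ± 0.19 and -0.65 ± 0.19 (adjusted p = 0.477, 4.1e-06 and 0.041), and it was the only collagen of the 10 that passed on the lower side at any week. The week 20 intensities were 256, 152, 173 and 266 in knockout livers, against 232, 269.8, 457 and 431 in control livers, and the groups overlap. The 2 highest control values are those of replicates 3 and 4, the arrays that stand apart, and without both the adjusted p was 0.533. Without one of them it was 0.152 or 0.144, and without knockout week 20 replicate 2 or 3 it was 0.145 or 0.117. It was 0.213 with only the week 20 groups fitted, 0.0709 with no filter on dim probes and 0.0542 without the variance trend.

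Col15a1, a collagen of the basement membrane zone, was called at no week, with differences of -0.27 ± 0.37, 0.57 ± 0.37 and -1.04 ± 0.37 at weeks 4, 8 and 20 (adjusted p = 0.635, 0.209 and 0.0963). Its week 20 intensities were 6.03, 4.90, 11.5 and 35.4 in knockout livers, against 11.1, 24.7, 60.4 and 122 in control livers, and the 2 highest control arrays were again replicates 3 and 4. Its adjusted p at week 20 was 0.0175 without control week 20 replicate 1 and 0.0409 without knockout week 20 replicate 4. Col6a1, a chain of the beaded microfibrils of type VI collagen, had 548, 336, 352 and 317 in knockout livers at week 4, against 72.3, 117, 166 and 254 in control livers. The week 8 values were 336, 362, 512 and 418 in knockout livers, against 64.1, 86.7, 72.6 and 45.6 in control livers. The groups were apart at both weeks, by 1.35 ± 0.31 (adjusted p = 0.00162) and 2.35 ± 0.31 (adjusted p = 6.9e-07). Its week 20 difference was 0.63 ± 0.31 (adjusted p = 0.232), while a second Col6a1 probe gave 0.83 ± 0.23 (adjusted p = 0.0372). Col6a2, its partner chain, rose by 1.31 ± 0.27 at week 8, at least 2.14-fold, with 32.9 to 37.0 in knockout livers and 2.80 to 6.27 in control livers. Its week 4 difference was 0.70 ± 0.27 (adjusted p = 0.0559), and it passed the threshold without control week 4 replicate 4 (adjusted p = 0.0269) or without knockout week 20 replicate 1, 2 or 4 (adjusted p = 0.0448, 0.0448 and 0.0361).

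Small leucine-rich proteoglycans coat collagen fibrils and, in the case of decorin, bind transforming growth factor beta. Lum, lumican, had the largest week 8 difference of the 33 genes. It had 671, 577, 614 and 869 in knockout livers at week 4, against 191, 186, 277 and 293 in control livers. At week 8 it had 1262, 1005, 2509 and 1591 in knockout livers, against 107, 153, 108 and 107 in control livers. At week 20 it had 244, 160.0, 224 and 268 in knockout livers, against 90.5, 112, 88.0 and 135 in control livers. The groups did not overlap at any week. Lum differed by 1.48 ± 0.22 (adjusted p = 1.8e-05), 3.51 ± 0.22 (adjusted p = 3.6e-12) and 0.97 ± 0.22 (adjusted p = 0.011), and it was the only gene of the 33 higher at all 3 weeks.

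Dcn, decorin, had the smallest SE of the 33 genes. It had 14995, 14431, 15508 and 11926 in knockout livers at week 8, against 5629, 5429, 5110 and 5835 in control livers, and its difference was 0.58 ± 0.10 in the week 4 livers (adjusted p = 1.1e-04) and 1.36 ± 0.10 in the week 8 livers (adjusted p = 6.5e-11). A second Dcn probe gave 0.48 ± 0.19 at week 4 (adjusted p = 0.062) and 1.36 ± 0.19 at week 8. At week 20 the 4 knockout arrays still lay above the control arrays, with 5807 to 7629 in knockout livers and 5147 to 5707 in control livers, without passing the threshold (0.24 ± 0.10, adjusted p = 0.161). Bgn, biglycan, a ligand of Toll-like receptors as well as a matrix protein, had 6577, 5654, 6988 and 7231 in knockout livers at week 8, against 2141, 2036, 1834 and 1799 in control livers. It differed by 0.79 ± 0.14 at week 4 and by 1.75 ± 0.14 at week 8 (adjusted p = 1.9e-04 and 4.5e-10). Fmod, fibromodulin, was above background on few arrays, and its differences were -0.18 ± 0.37, -0.16 ± 0.37 and -0.34 ± 0.37, none past the threshold.

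Elastic fibres consist of elastin on a scaffold of fibrillin, and lysyl oxidases cross-link both elastin and collagen. Eln, elastin, had 79.3, 116, 78.6 and 142 in knockout livers at week 8, against 7.39, 2.95, 1.33 and -4.46 in control livers, none of them above background. It was higher in knockout livers by 2.64 ± 0.38 (adjusted p = 2.8e-06), at least 6.16-fold. At week 4 it had 157, 174, 117 and 139 in knockout livers, against 9.19, 97.2, 149 and 136 in control livers, where replicate 1 lay far below the others, and the difference of 0.81 ± 0.38 did not pass the threshold (adjusted p = 0.114). Without control week 4 replicate 4 its adjusted p was 0.0412.

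Loxl1, a lysyl oxidase of elastic fibres, had 207, 262, 216 and 231 in knockout livers at week 4, against 35.9, 74.6, 136 and 190.4 in control livers. By week 8 the values were 406, 410.1, 300.3 and 323 in knockout livers, against 50.9, 47.4, 43.5 and 13.7 in control livers. It was separate between the genotypes at both weeks, by 1.15 ± 0.30 (adjusted p = 0.00506) and 2.83 ± 0.30 (adjusted p = 2.5e-08), and at week 20 as well without passing the threshold (0.78 ± 0.30, adjusted p = 0.125). Lox, the enzyme that cross-links collagen, had 40.0, 32.5, 41.1 and 42.1 in knockout livers at week 8, against -3.87, -4.87, 0.52 and -7.41 in control livers, and rose by 1.76 ± 0.22 (adjusted p = 3.9e-07), at least 2.37-fold. Its week 20 difference of 0.66 ± 0.22 (adjusted p = 0.0784) passed without knockout week 20 replicate 3 (adjusted p = 0.0214).

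Fbn1, fibrillin-1, had 112 to 203 in knockout livers and 39.3 to 69.8 in control livers at week 8 and differed by 0.57 ± 0.19 at week 4 and by 1.23 ± 0.19 at week 8 (adjusted p = 0.027 and 8.6e-06). The week 4 call was lost without control week 4 replicate 1 or 3 (adjusted p = 0.078 and 0.0805) and without knockout week 4 replicate 3 or 5 (adjusted p = 0.0678 and 0.0762), and with an offset of 1 or a floor of 1 and quantile normalization (adjusted p = 0.0514 and 0.0538). Fbln2, fibulin-2, a marker of portal fibroblasts in liver, had 106, 136, 97.2 and 151 in knockout livers at week 8, against 12.1, 6.34, 36.3 and 4.69 in control livers, and rose by 2.25 ± 0.37 (adjusted p = 1.9e-05). A second Fbln2 probe differed by 0.07 ± 0.35 (adjusted p = 0.892), so the Fbln2 call rests on 1 probe.

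**Figure D2:**
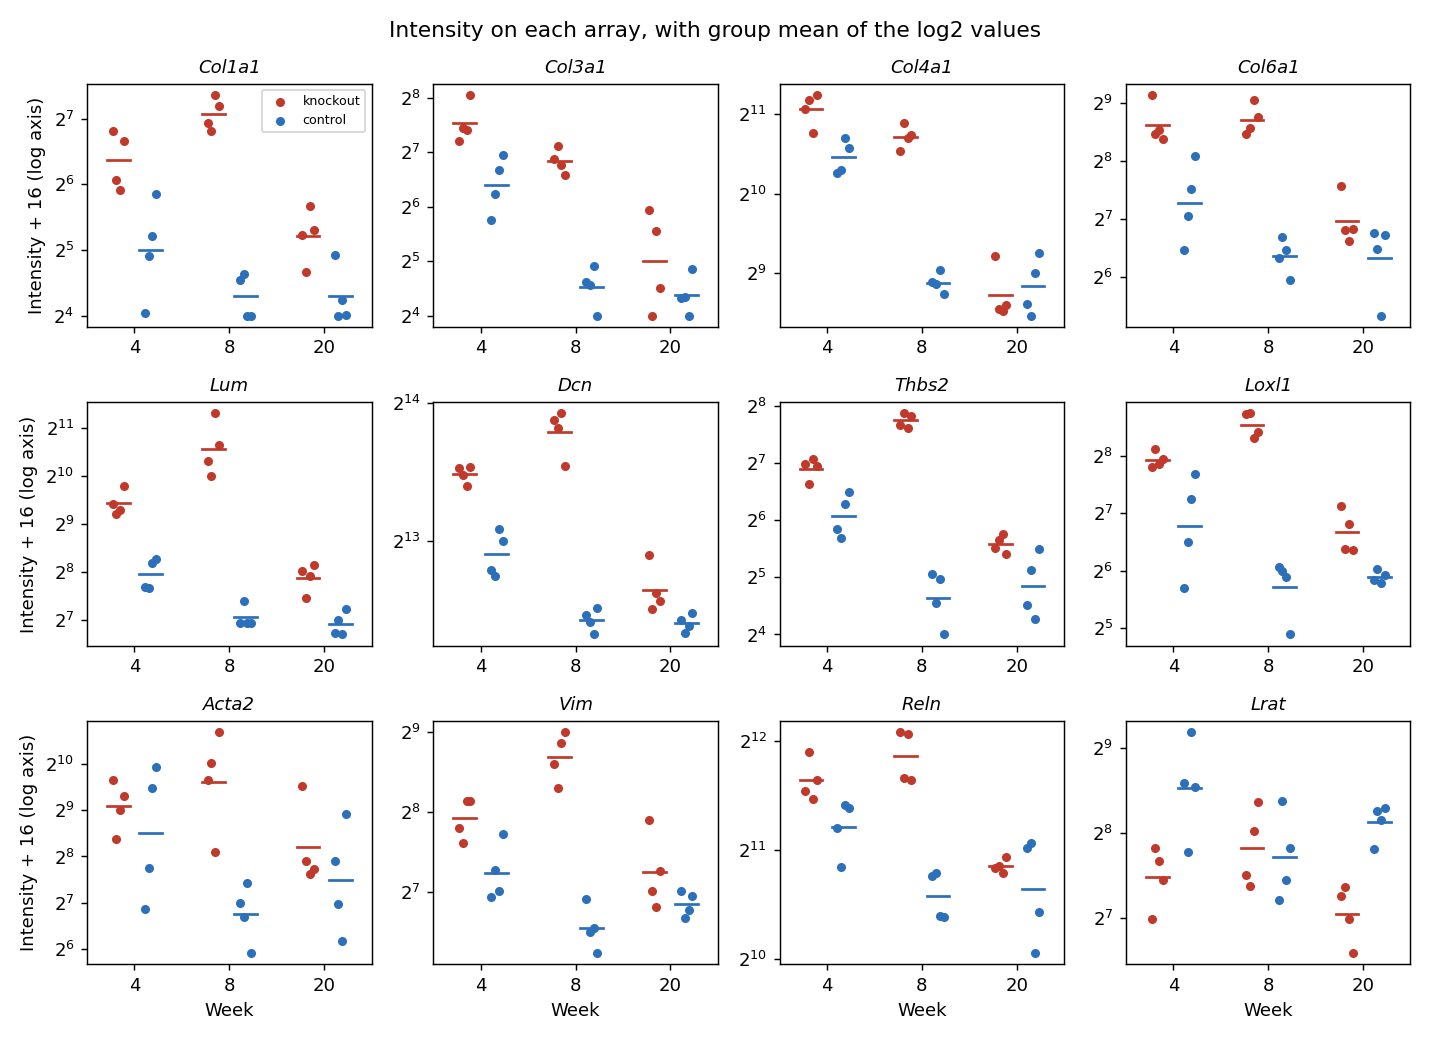
Intensity + 16 (log axis) on each of the 24 arrays by week for 12 of the genes, knockout left of control, with bars at the mean of the log2 values (n = 4). At week 8 the 4 knockout arrays lie above the 4 control arrays in every panel except Lrat, and at week 20 they do so for Lum, Dcn and Loxl1, while for Lrat they lie below.

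Matricellular proteins signal from the matrix. Thbs2, thrombospondin-2, had 109.5, 83.1, 118 and 106 in knockout livers at week 4, against 41.6, 35.5, 62.2 and 73.5 in control livers. At week 8 it had 188, 217, 179 and 209.9 in knockout livers, against 17.2, 7.35, 15.4 and -6.43 in control livers, of which 1 array was above background. The differences were 0.82 ± 0.25 (adjusted p = 0.0136) and 3.10 ± 0.25 (adjusted p = 2.3e-10), and 0.73 ± 0.25 at week 20 (adjusted p = 0.0797). The week 4 call was lost with an offset of 1 (adjusted p = 0.26), with a floor of 1 and quantile normalization (adjusted p = 0.263) and without control week 4 replicate 3 (adjusted p = 0.0578). The week 20 value passed without control week 20 replicate 4 (adjusted p = 0.0335).

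Sparc, a collagen-binding protein also called osteonectin, had 1443, 1479, 2298 and 2133 in knockout livers at week 8, against 489, 450.3, 526 and 459.9 in control livers. It was higher in knockout livers by 1.87 ± 0.17 (adjusted p = 1.8e-09). At week 4 its difference was 0.33 ± 0.17 and at week 20 it was 0.00 ± 0.17, neither past the threshold. Ctgf, connective tissue growth factor, listed today as Ccn2 and a target of transforming growth factor beta and YAP, varied much between arrays. It had 467, 565, 463 and 1176 in knockout livers at week 4, against 385, 702, 1176 and 1117 in control livers. In the week 8 livers they were 1607, 2276, 2572 and 1379 in knockout livers, against 670.5, 563, 889 and 768 in control livers. The groups overlapped at week 4 and were apart at week 8, with differences of -0.32 ± 0.40 (adjusted p = 0.6) and 1.39 ± 0.40 (adjusted p = 0.00576). At week 20 the difference was 1.06 ± 0.40 (adjusted p = 0.121), with an adjusted p of 0.0204 without control week 20 replicate 2.

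Contractile genes mark the myofibroblast, and vascular smooth muscle carries them in every liver. Acta2, alpha smooth muscle actin, had 788, 1030, 257 and 1648 in knockout livers at week 8, against 110.4, 86.6, 156 and 43.7 in control livers. All 4 knockout arrays were above the controls, and replicate 3 lay far below the other knockout arrays. The rise was 2.87 ± 0.62 (adjusted p = 4.7e-04), with the largest SE of the 33 genes. At week 4 it had 789, 319, 502 and 619 in knockout livers, against 99.9, 198, 697 and 971 in control livers, which overlapped (0.59 ± 0.62, adjusted p = 0.525). Of 3 further Acta2 probes kept, 2 rose at week 8, by 2.05 ± 0.52 (adjusted p = 0.00219) and 1.06 ± 0.31 (adjusted p = 0.00721), and 1 differed by 0.40 ± 0.30 (adjusted p = 0.286).

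Vim, vimentin, an intermediate filament of mesenchymal and blood cells, had 373, 298, 451 and 495 in knockout livers at week 8, against 105, 74.8, 77.5 and 59.5 in control livers. It rose by 0.69 ± 0.22 at week 4 and by 2.14 ± 0.22 at week 8 (adjusted p = 0.0191 and 1.3e-08). The week 4 call was lost without control week 4 replicate 1 or 4 (adjusted p = 0.0696 and 0.06) and without knockout week 4 replicate 4 or 5 (adjusted p = 0.0562 and 0.0645). Tagln, transgelin, an actin-binding protein of smooth muscle, rose by 0.87 ± 0.30 at week 8 (adjusted p = 0.0193), at least 1.26-fold, with 14.3 to 24.7 in knockout livers and -2.20 to 7.94 in control livers. The call was lost without control week 8 replicate 4 (adjusted p = 0.0612), with an offset of 1 (adjusted p = 0.0685) and with a floor of 1 and quantile normalization (adjusted p = 0.0681). Des, desmin, the filament of rodent stellate cells in their resting as well as active state, was called at no week. Its week 8 intensities were 83.3, 71.6, 60.1 and 77.3 in knockout livers, against 71.2, 60.0, 67.9 and 62.2 in control livers, which overlapped, with a difference of 0.13 ± 0.20 (adjusted p = 0.617).

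Among the signals, Tgfb1, the ligand that drives matrix synthesis, had 227, 278, 151 and 169 in knockout livers at week 8, against 88.2, 71.7, 85.5 and 64.8 in control livers, and rose by 1.22 ± 0.20 (adjusted p = 1.5e-05). Its week 4 difference was 0.40 ± 0.20 (adjusted p = 0.138), and without knockout week 4 replicate 1 its adjusted p was 0.0311. Pdgfra, a receptor of platelet-derived growth factor on fibroblasts, had 324, 242, 325 and 168 in knockout livers at week 8, against 62.5, 60.3, 61.5 and 16.5 in control livers, where replicate 5 was far below the others. It rose by 0.71 ± 0.24 at week 4 and by 2.13 ± 0.24 at week 8 (adjusted p = 0.0279 and 7.2e-08). The week 4 call was lost without control week 4 replicate 3 or 4 (adjusted p = 0.102 and 0.0516) and without knockout week 4 replicate 1 or 3 (adjusted p = 0.108 and 0.0501). It was also lost with an offset of 1, with a floor of 1 and quantile normalization and with no filter on dim probes (adjusted p = 0.0552, 0.058 and 0.0552). At week 20 Pdgfra had 103.3 to 119.5 in knockout livers and 64.8 to 73.9 in control livers. These groups did not overlap, and the difference did not pass the threshold. Pdgfrb, the receptor that drives stellate cell division, was dim, with 24.7 to 37.2 in knockout livers and 5.45 to 17.9 in control livers at week 8, and rose by 0.85 ± 0.30 (adjusted p = 0.0203). Without control week 8 replicate 4 its adjusted p was 0.0622.

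The 4 quiescence genes did not move as one. Lrat, lecithin retinol acyltransferase, which makes the stored retinyl esters, had 111, 212, 187 and 159 in knockout livers at week 4, against 370.2, 204, 566 and 356 in control livers. At week 8 it had 167, 151, 245 and 313 in knockout livers, against 133, 317, 158 and 211 in control livers. At week 20 it had 138, 149, 111 and 80.4 in knockout livers, against 209, 290.5, 269.8 and 297 in control livers. It was lower at week 4 (-1.04 ± 0.27, adjusted p = 0.00566) with 1 overlapping control array, overlapped at week 8 (0.10 ± 0.27, adjusted p = 0.778) and was lower without overlap at week 20 (-1.08 ± 0.27, adjusted p = 0.022). The week 20 call was lost without control week 20 replicate 3 or 4 (adjusted p = 0.055 and 0.0647), without both (adjusted p = 0.132) and without knockout week 20 replicate 3 or 4 (adjusted p = 0.0511 and 0.0635). With array weights its adjusted p was 0.0576.

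Reln, reelin, a secreted protein that stellate cells make in healthy liver, was called at week 8 alone of the 3 weeks. It had 4325, 3234, 4283 and 3191 in knockout livers at week 8, against 1719, 1760, 1329 and 1318 in control livers, and rose by 1.28 ± 0.18 (adjusted p = 2.0e-06). At week 4 the groups were also apart, with 2828 to 3801 in knockout livers and 1825 to 2715 in control livers, at 0.43 ± 0.18 (adjusted p = 0.0794). That value passed without control week 20 replicate 3 (adjusted p = 0.0409), without replicates 3 and 4 (adjusted p = 0.0207), with only the week 4 groups fitted (adjusted p = 0.0307) and with array weights (adjusted p = 0.0102). The week 20 groups overlapped, with 1760 to 1942 in knockout livers and 1047 to 2129 in control livers, at 0.21 ± 0.18 (adjusted p = 0.529). Ngfr, the low-affinity neurotrophin receptor, was lower in the mean at each week, by -0.51 ± 0.25, -0.43 ± 0.25 and -0.56 ± 0.25, and passed the threshold at none (adjusted p = 0.128, 0.154 and 0.189).

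Ecm1, extracellular matrix protein 1, which keeps transforming growth factor beta latent and is made by hepatocytes as well, had 1840, 1744, 1524 and 1579 in knockout livers at week 4, against 2094, 2191, 2464 and 2402 in control livers. It was lower in knockout livers (-0.45 ± 0.13, adjusted p = 0.00872) and its groups did not overlap. With the mean of both kept probes its adjusted p at week 4 was 0.0592. At week 8 the difference was -0.21 ± 0.13 (adjusted p = 0.181) and at week 20 -0.33 ± 0.13 (adjusted p = 0.126). A second Ecm1 probe was called at week 8 and not at week 4, with differences of -0.57 ± 0.21 (adjusted p = 0.0249) and -0.20 ± 0.21 (adjusted p = 0.529). Without control week 20 replicate 3 the week 20 value passed (adjusted p = 0.0285).

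The arrays of a group did not carry these genes evenly. In control livers of week 4, replicates 1 and 3 had the lowest intensity in 16 and 14 of the 33 genes, and replicates 4 and 5 the highest in 13 and 16. In knockout livers of week 20, replicate 1 was highest in 16. In control livers of week 8, replicate 5 was lowest in 18. The count of genes called at week 4 ranged from 11 to 16 when single arrays were left out, and that at week 8 from 25 to 27.

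The following comparisons set one week against the next within each genotype. In knockout livers 7 of the 33 genes were higher at week 8 than at week 4 and 0 were lower, against 4.98% and 4.02% of all genes (8.99% together), with a median change of 0.24 against -0.010 over all genes. In control livers 0 were higher and 13 were lower over the same weeks, against 3.19% and 4.79% of all genes (7.98% together), with a median change of -0.68 against 0.002 over all genes. These comparisons share groups with the week 4 and week 8 comparisons between genotypes, and their values are given beside those. Without control week 20 replicates 3 and 4, which enter through the shared estimate of spread, 17 genes were lower in control livers.

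The 13 genes lower at week 8 than at week 4 in control livers were Col3a1, Col5a1, Col14a1, Col4a1, Col4a2, Lum, Dcn, Eln, Lox, Loxl1, Thbs2, Sparc and Reln. In knockout livers Eln had 78.6 to 142 at week 8, against 117 to 174 at week 4, and in control livers it had -4.46 to 7.39 at week 8, against 9.19 to 149 at week 4. Its change was -0.47 ± 0.38 in knockout livers (adjusted p = 0.52), against -2.30 ± 0.38 in control livers (adjusted p = 2.2e-04). Elastin was above background on 4 of 4 knockout arrays at both weeks, and on 0 control arrays at week 8 against 3 at week 4.

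Col3a1 changed by -0.70 ± 0.33 in knockout livers (adjusted p = 0.21), against -1.88 ± 0.33 in control livers (adjusted p = 4.6e-04), at least 4.15-fold. Sparc changed by -0.33 ± 0.17 in knockout livers (adjusted p = 0.26), against -1.86 ± 0.17 in control livers (adjusted p = 2.0e-08). Col4a1 changed by -0.35 ± 0.17 in knockout livers (adjusted p = 0.223), against -1.57 ± 0.17 in control livers (adjusted p = 3.6e-07). For Eln and these 3 genes the control level was lower at week 8 than at week 4, and the change in knockout livers did not pass the threshold. Tested directly, the difference between the genotypes changed over these weeks for Eln, Sparc and Col4a1. For Col3a1 that change did not pass the threshold. None of the 10 collagen genes tested passed the threshold in knockout livers over these weeks.

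The 7 genes higher at week 8 than at week 4 in knockout livers were Lum, Bgn, Fbln2, Thbs2, Ctgf, Vim and Pdgfra. Ctgf rose by 1.60 ± 0.40 in knockout livers (adjusted p = 0.0113), against -0.12 ± 0.40 in control livers (adjusted p = 0.913). Fbln2 rose by 1.30 ± 0.37 in knockout livers (adjusted p = 0.0261), against -0.66 ± 0.37 in control livers (adjusted p = 0.323). Lum rose by 1.14 ± 0.22 in knockout livers (adjusted p = 0.00159), against -0.89 ± 0.22 in control livers (adjusted p = 0.0108), and Thbs2 likewise by 0.84 ± 0.25 (adjusted p = 0.0304), against -1.43 ± 0.25 (adjusted p = 3.7e-04). Of the 33 genes, Lum and Thbs2 were called in opposite directions in knockout and control livers. The count of 7 was 3 without knockout week 4 replicate 3 and 4 without knockout week 4 replicate 4 or 5 or knockout week 8 replicate 3.

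**Figure D3:**
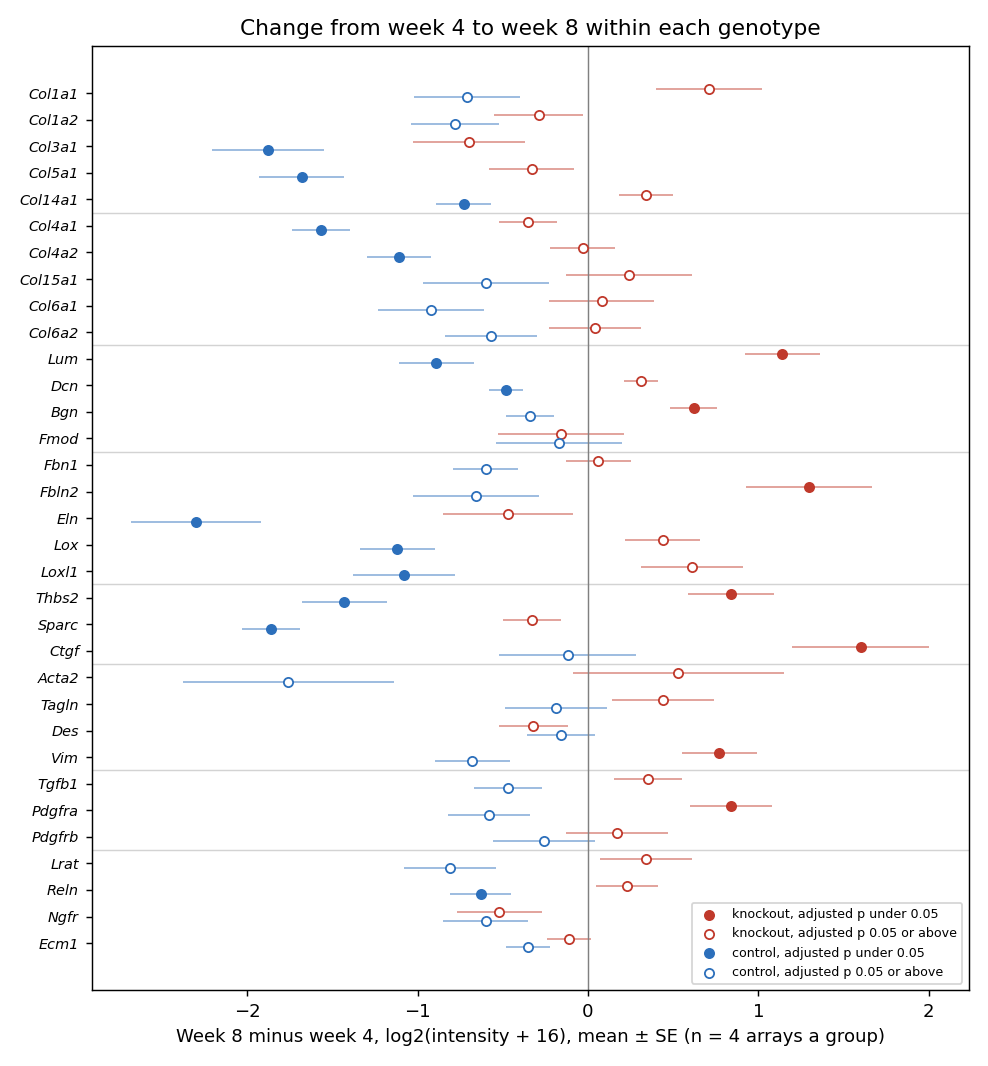
Change from week 4 to week 8 of each tested gene in knockout (red, upper point of each pair) and control (blue, lower point) livers, as week 8 minus week 4 on the log2(intensity + 16) scale with bars of 1 SE (n = 4 arrays a group). Filled points have an adjusted p under 0.05. In knockout livers 7 points are filled, right of 0, and in control livers the 33 points lie left of 0 and 13 are filled.

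The difference between the genotypes was tested for its own change between the weeks. The signed knockout minus control difference was higher at week 8 than at week 4 for 17 of the 33 genes and lower for 0, against 5.57% and 3.36% of all genes (8.94% together), with a median change of 1.08 against -0.012. The 17 were Col1a1, Col5a1, Col14a1, Col4a1, Col4a2, Lum, Dcn, Bgn, Fbln2, Eln, Lox, Loxl1, Thbs2, Sparc, Vim, Pdgfra and Reln. Among these Thbs2 had the largest change, 2.27 ± 0.35 (adjusted p = 1.2e-04), followed by Lum with 2.03 ± 0.31 (adjusted p = 1.2e-04). For Acta2 the change was 2.28 ± 0.88 (adjusted p = 0.113) and for Ctgf 1.71 ± 0.57 (adjusted p = 0.0597), neither past the threshold. Left out 1 at a time, the arrays gave counts of 14 to 18.

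The signed difference was lower at week 20 than at week 8 for 24 genes and higher for 0, against 16.9% and 14.2% of all genes (31.1% together), with a median change of -1.36 against 0.035. Lrat and Col15a1 are among the 24 with differences near or above 0 at week 8 and below 0 at week 20, -1.08 ± 0.27 against 0.10 ± 0.27 and -1.04 ± 0.37 against 0.57 ± 0.37. The 24 include each of the 10 tested collagen genes except Col6a2. Lum changed by -2.54 ± 0.31 (adjusted p = 1.6e-06), Thbs2 by -2.37 ± 0.35 (adjusted p = 1.4e-05) and Eln by -2.11 ± 0.53 (adjusted p = 0.00389). Col6a2, Fmod, Ctgf, Acta2, Tagln, Des, Pdgfrb, Ngfr and Ecm1 were not called.

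Within knockout livers 24 genes were lower at week 20 than at week 8 and 0 were higher, against 22.2% and 20.8% of all genes (43.0% together), with a median change of -1.14 against 0.032 over all genes. Lum fell to 160.0 to 268 in knockout livers of week 20, against 1005 to 2509 in knockout livers of week 8, a change of -2.68 ± 0.22 (adjusted p = 8.8e-10). Col4a1 fell to 351 to 579 in knockout livers of week 20, against 1469 to 1876 in knockout livers of week 8, a change of -1.99 ± 0.17 (adjusted p = 1.1e-09). Sparc changed by -2.07 ± 0.17 (adjusted p = 6.4e-10), Dcn by -1.14 ± 0.10 (adjusted p = 2.3e-09) and Thbs2 by -2.16 ± 0.25 (adjusted p = 1.3e-07).

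Pdgfrb was among the 9 that did not pass in knockout livers. It had 36.5, 24.8, 38.4 and 35.5 in knockout livers of week 20, against 33.6, 37.2, 24.7 and 33.2 in knockout livers of week 8, a change of 0.05 ± 0.30 (adjusted p = 0.915). The change of Ctgf was -0.84 ± 0.40 (adjusted p = 0.0955) and that of Acta2 -1.42 ± 0.62 (adjusted p = 0.0684). In control livers limma called 0 of the 33 genes between weeks 8 and 20, against 0.0186% of all genes higher and 0.00932% lower (0.0280% together), and 3 had an unadjusted p under 0.05.

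**Figure D4:**
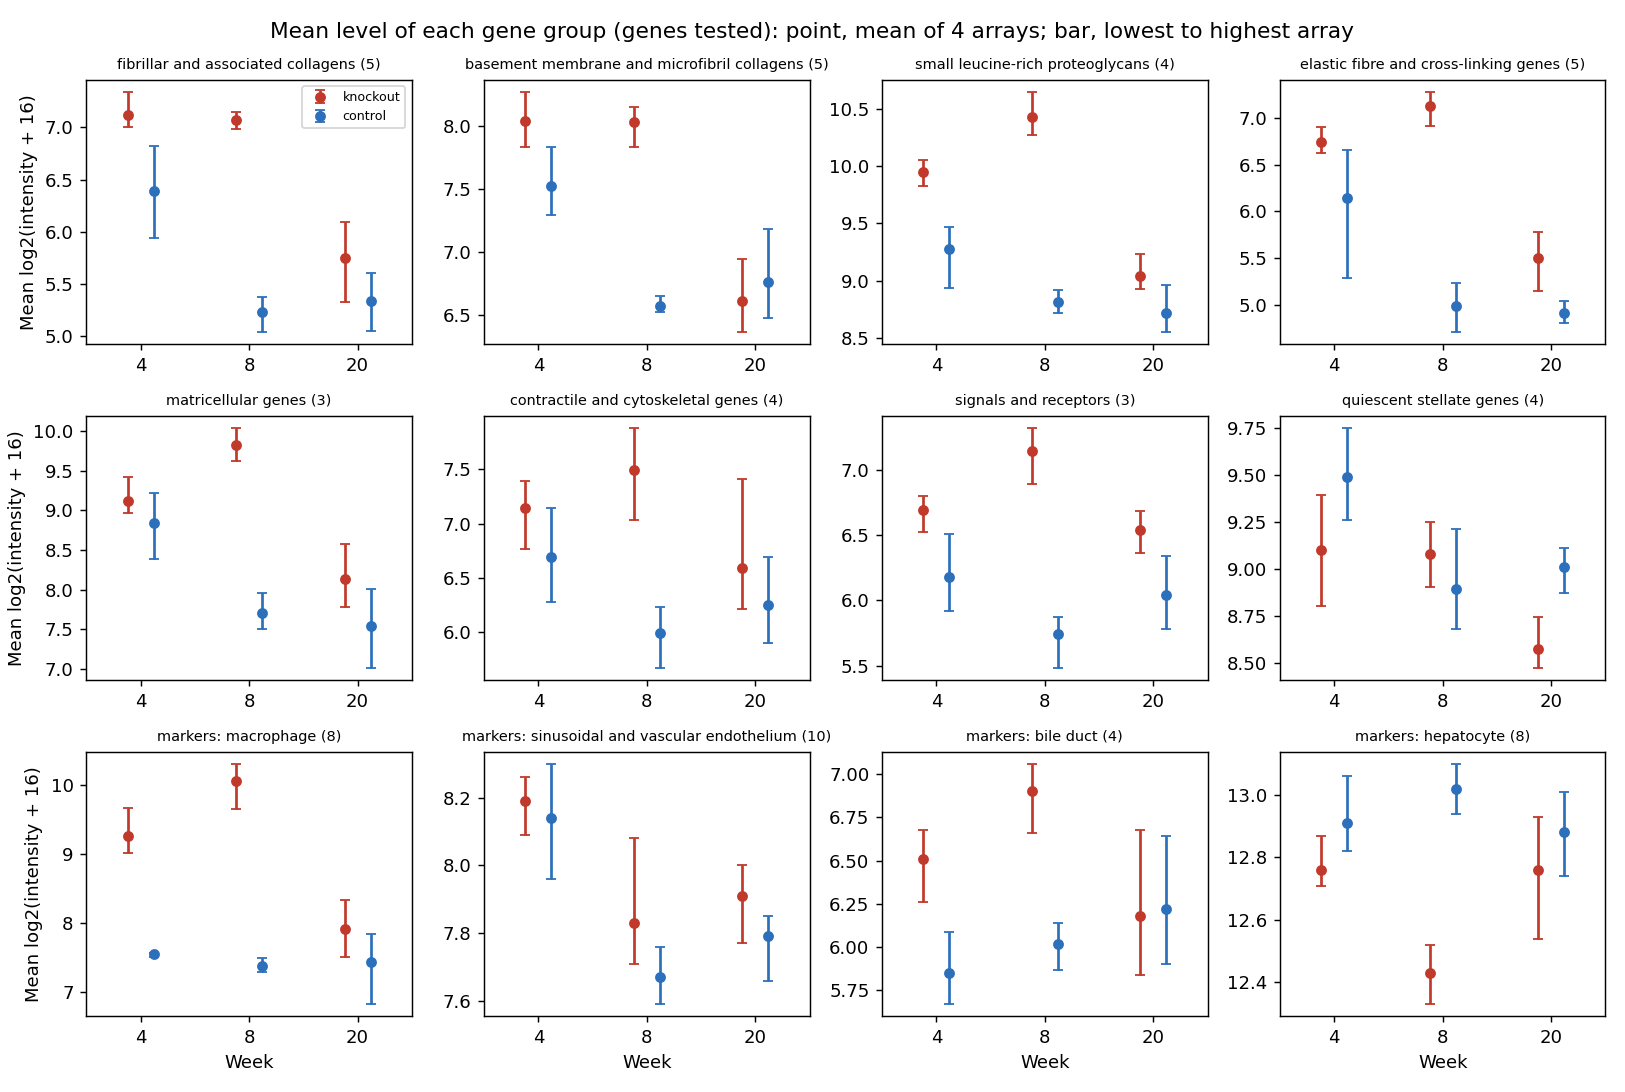
Mean log2(intensity + 16) of each role group of the matrix and stellate genes (upper 8 panels) and of 4 other cell type marker lists (lower 4 panels) by week, knockout left of control, with the point at the mean of 4 arrays and the bar from the lowest to the highest array. The number of genes is in brackets. In knockout livers the fibrillar collagens averaged 7.12, 7.07 and 5.75 at weeks 4, 8 and 20, and in control livers 6.39, 5.23 and 5.34.

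Further genes of the pathway were read from separate lists, for which the shares and medians of all genes given above for each week are the background. Of 19 tested genes that fold and process collagen, 3 were higher and 1 lower at week 4, 8 higher and 2 lower at week 8, and 2 higher and 0 lower at week 20, with medians of 0.26, 0.27 and 0.20. Adamts2, which removes the amino-terminal propeptide of procollagen, rose at all 3 weeks, by 0.92 ± 0.23, 2.27 ± 0.23 and 0.79 ± 0.23 (adjusted p = 0.00377, 1.4e-08 and 0.0453). Pcolce, which enhances removal of the carboxy-terminal propeptide, rose by 1.67 ± 0.22 at week 8 (adjusted p = 8.0e-07), Colgalt1, which puts galactose on collagen, by 1.31 ± 0.10 (adjusted p = 1.5e-10) and Fkbp10, a collagen chaperone, by 1.35 ± 0.22 (adjusted p = 1.9e-05).

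Of 20 tested genes of transforming growth factor beta signalling beside Tgfb1, 5 were higher and 0 lower at week 4, 8 higher and 2 lower at week 8, and 1 higher and 0 lower at week 20, with medians of 0.13, 0.46 and 0.10. Tgfbi, a target gene of the pathway, rose by 2.22 ± 0.14 at week 8 (adjusted p = 4.7e-12), and the receptor Tgfbr2 rose by 1.93 ± 0.20 (adjusted p = 2.9e-08), as did its partner Tgfbr1 (adjusted p = 1.9e-05). Ltbp3, which binds the latent ligand, rose by 1.78 ± 0.28 (adjusted p = 9.7e-06).

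Of 9 tested genes of the platelet-derived growth factor, endothelin, angiotensin and hedgehog pathways, 3 were higher and 1 lower at week 4, 6 higher and 1 lower at week 8, and 1 higher and 0 lower at week 20, with medians of 0.46, 1.15 and 0.26. Pdgfa, a ligand of Pdgfra, rose by 1.55 ± 0.17 at week 4 and by 1.16 ± 0.17 at week 8 (adjusted p = 2.9e-07 and 5.1e-06). Pdgfb, the ligand of Pdgfrb, rose at all 3 weeks, by 1.17 ± 0.23 (adjusted p = 3.3e-04), 1.94 ± 0.23 (adjusted p = 1.3e-07) and 0.86 ± 0.23 (adjusted p = 0.0267). The endothelin receptors Ednra and Ednrb rose by 1.21 ± 0.19 (adjusted p = 1.1e-05) and 1.89 ± 0.19 (adjusted p = 1.4e-08) at week 8, and Ednrb differed by 0.17 ± 0.19 at week 4 (adjusted p = 0.557).

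Of 31 further matrix genes tested, 13 were higher and 1 lower at week 4, 20 higher and 3 lower at week 8, and 5 higher and 0 lower at week 20, with medians of 0.41, 1.26 and 0.27. Olfml3, a secreted olfactomedin protein, rose by 3.64 ± 0.23 at week 8 and by 1.32 ± 0.23 at week 20 (adjusted p = 3.3e-12 and 0.00116). Ccdc80, a matrix protein of mesenchymal cells, rose by 2.71 ± 0.18 (adjusted p = 1.5e-11) and 0.83 ± 0.18 (adjusted p = 0.00862). Nid1, nidogen-1 of the basement membrane, rose by 2.59 ± 0.22 at week 8 (adjusted p = 7.9e-10), and its week 20 difference was 0.27 ± 0.22 (adjusted p = 0.516).

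Of 16 further genes of quiescent stellate cells and pericytes, 3 were higher and 1 lower at week 4, 7 higher and 2 lower at week 8, and 2 higher and 0 lower at week 20, with medians of 0.00, 0.57 and 0.13. Cygb, cytoglobin, a stellate cell globin, rose by 1.65 ± 0.16 (adjusted p = 2.7e-08), 2.41 ± 0.16 (adjusted p = 8.5e-12) and 0.84 ± 0.16 (adjusted p = 0.00297). Adamtsl2, a microfibril-binding protein, rose by 2.17 ± 0.34 at week 8 and by 1.84 ± 0.34 at week 20 (adjusted p = 1.2e-05 and 0.00239).

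Markers of other cells that make matrix or share these transcripts moved as well. Of 15 portal fibroblast and smooth muscle genes tested, 5 were higher and 1 lower at week 4, 7 higher and 1 lower at week 8, and 1 higher and 1 lower at week 20, with medians of 0.36, 0.88 and 0.08. Entpd2, an ectonucleotidase of portal fibroblasts, rose by 1.95 ± 0.20 at week 8 (adjusted p = 1.1e-08) and Thy1 by 2.38 ± 0.28 (adjusted p = 1.4e-07). The mean log2 level of this list was 7.25 to 7.51 in knockout livers and 6.48 to 6.76 in control livers at week 8.

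Macrophage markers were higher in knockout livers as well. Of 8 tested, 7 were higher at week 4, 8 at week 8 and 1 at week 20, and none was lower, with medians of 1.28, 2.37 and 0.06. Their mean log2 level was 9.02 to 9.67 in knockout livers and 7.51 to 7.57 in control livers at week 4, and 9.65 to 10.31 in knockout livers and 7.30 to 7.50 in control livers at week 8. At week 20 it was 7.52 to 8.34 in knockout livers and 6.83 to 7.84 in control livers. Gpnmb rose by 6.26 ± 0.30 at week 8 (adjusted p = 2.4e-14) and Trem2 by 4.02 ± 0.33 (adjusted p = 3.8e-10), while Itgam and Itgax were above background on 0 arrays. Macrophages express Vim and Tgfb1, and their part in the rise of those genes was not tested.

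Of 10 endothelial markers, 1 was higher at week 4, 3 higher and 2 lower at week 8 and 0 at week 20, with medians of -0.06, -0.08 and 0.05 and a mean log2 level of 7.71 to 8.08 in knockout livers and 7.59 to 7.76 in control livers at week 8. Endothelium also makes type IV collagen and Sparc. Plvap, a marker of capillary-like endothelium, rose by 1.25 ± 0.12 at week 8 (adjusted p = 1.2e-08) and Clec4g, of sinusoidal endothelium, fell, with -0.66 ± 0.14 (adjusted p = 4.7e-04). Of 4 bile duct markers tested, 1 was higher at week 4, 2 at week 8 and 0 at week 20. Spp1 rose by 2.76 ± 0.25 at week 8 (adjusted p = 2.4e-09) and Sox9 by 0.96 ± 0.30 (adjusted p = 0.0103), whereas Krt19 and Cftr were above background on 2 arrays each. Spp1 is also made by macrophages and stellate cells. The mean log2 level of the list was 6.66 to 7.06 in knockout livers and 5.87 to 6.14 in control livers at week 8.

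Of 8 hepatocyte markers 1 was lower at week 4, 3 at week 8 and 1 at week 20, and none was higher. Their median differences were -0.02, -0.12 and 0.11 at weeks 4, 8 and 20. Alb, albumin, fell at each week, with -0.93 ± 0.16, -2.94 ± 0.16 and -1.41 ± 0.16 at weeks 4, 8 and 20 (adjusted p = 1.2e-04, 3.3e-13 and 5.6e-06). The mean log2 level of the list was 12.33 to 12.52 in knockout livers and 12.94 to 13.10 in control livers at week 8. That mean includes Alb, which had the largest difference of the list, while 3 of the 8 markers had a positive difference at week 8. Of the mesothelial markers Msln, Gpm6a and Lrrn4 were above background on 0 arrays, and Upk3b differed by -0.74 ± 0.32 at week 8 (adjusted p = 0.0626). The part of these cell types in the changes of the matrix genes was not tested.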

How the data were processed

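Total RNA of 24 livers was labelled as biotinylated cRNA and read on Illumina arrays, per the labels' protocols. The deposited values are normalized linear intensity for 25697 probes, made by the authors with GenomeStudio 2011, per the submitters' processing notes. The normalization method, chip positions and the genome build of the probes are not given in the sources used here. Column medians ran from 13.3 to 13.6 and 27.8% of values were below 0. The non-normalized table has 48 columns of values whose names match no sample label, and only its pairing of probes with symbols was used. Of those symbols 20733 were current, 3875 were updated through RefSeq, 1058 were kept as given and 31 were damaged into dates.

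Values were floored at 0, 16 was added and log2 was taken. The background threshold of 16.3 is 2.33 times the SD of 7.03 estimated from the negative values (one-sided p of 0.01). Probes above it on at least 4 arrays were kept and the probe of highest mean stood for its gene, giving 10733 genes. limma 3.58.1 (R 4.3.3) estimated the means of the 6 groups in one linear model, with eBayes and an intensity trend, and tests were two-sided, with Benjamini-Hochberg adjustment over all genes and a threshold of 0.05. The fit was tested on simulated data. The number of arrays, 4 a group, limits the precision. A fold of at least a given size divides the brighter group's mean by the higher of the threshold and the dim group's own mean.

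The 39 genes and the lists were chosen with earlier results of these data known. All 39 are named, and of each further list up to 4 genes of lowest p over the knockout-control comparisons. One gene that this rule names is not reported here. Deviations of same-numbered knockout and control arrays from their group means correlated at -0.15 to 0.04, so no strong shared deviation was seen. The labels state no pairing, and these correlations cannot exclude one. The alternatives tried were other offsets, quantile normalization again, other filters and probe rules, array weights, a fit without the trend or with the compared groups alone, a replicate block, and each array left out in turn.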

Additional observations from a re-analysis of the deposited data

Results flagged for a closer look

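Among 184 pairs of a gene and a group of 4 arrays, 9 held an array far from the other 3 by Dixon's test, about as many as the 1 in 20 that chance gives. In knockout livers of week 20, replicate 1 was high for Acta2 (726.9, others 181.5 to 223.0), Col4a1 (579.2, others 351.2 to 374.0) and Tagln (31.22, others 0.6865 to 3.212), and replicate 3 was high for Ecm1 (1618, others 1348 to 1376). In control livers of week 8, replicate 5 was low for Loxl1 (13.67, others 43.55 to 50.93) and Pdgfra (16.48, others 60.27 to 62.46). Replicate 3 of the same group was high for Lum (153.0, others 106.7 to 107.6) and low for Col5a1 (49.61, others 65.26 to 67.22). In control livers of week 4, replicate 5 was high for Pdgfrb (37.73, others 10.18 to 11.97).

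The knockout effect itself differed between weeks 4 and 8 for 17 genes by limma's test of the change. On the log2 scale the week 8 effect exceeded the week 4 effect by 1.43 for Col1a1, 1.35 for Col5a1, 1.07 for Col14a1, 1.22 for Col4a1 and 1.08 for Col4a2. Among proteoglycans the change was 2.03 for Lum, 0.78 for Dcn and 0.96 for Bgn, and among elastic fibre and cross-linking genes 1.96 for Fbln2, 1.83 for Eln, 1.56 for Lox and 1.68 for Loxl1. It was 2.27 for Thbs2, 1.54 for Sparc, 1.45 for Vim, 1.42 for Pdgfra and 0.86 for Reln.

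Between weeks 8 and 20 the effect changed for 24 genes. Among collagens the change was -1.86 for Col1a1, -1.17 for Col1a2, -1.68 for Col3a1, -1.46 for Col5a1, -0.94 for Col14a1, -1.95 for Col4a1, -1.93 for Col4a2, -1.61 for Col15a1 and -1.72 for Col6a1. It was -2.54 for Lum, -1.12 for Dcn, -1.36 for Bgn, -0.82 for Fbn1, -1.79 for Fbln2, -2.11 for Eln, -1.11 for Lox and -2.05 for Loxl1. For the other genes it was -2.37 for Thbs2, -1.87 for Sparc, -1.75 for Vim, -0.97 for Tgfb1, -1.54 for Pdgfra, -1.18 for Lrat and -1.07 for Reln.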

How the results depend on the processing

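Across the alternatives, 3423 of 3558 single-gene values in the knockout-control comparisons kept their direction and their side of the threshold, 65 no longer passed it and 34 newly passed it. No called value changed sign, and 36 values that passed in neither fit did. With an offset of 1 in place of 16, 9 genes were called at week 4 in place of 15, and 4 in place of 7 between weeks 4 and 8 in knockout livers. That count was also 4 after a floor of 1 with quantile normalization, and 4 with no filter on dim probes. With array weights, 21 genes were called between weeks 4 and 8 in control livers in place of 13. With the replicate block, although no knockout array correlated best with the control array of its own number, 16, 27 and 3 genes were called at weeks 4, 8 and 20, and the effect changed for 10 genes between weeks 4 and 8 and 21 between weeks 8 and 20. It ended the calls of Tagln at week 8 (adjusted p = 0.103) and Col4a2 at week 20 (adjusted p = 0.0831) and added Col5a1 at week 4 and Col15a1 at weeks 8 and 20 (adjusted p = 0.0485, 0.0168 and 0.0234). The block was set within each week, so weeks could not be compared with it inside a genotype. Leaving out single arrays gave 11 to 16 calls at week 4, 25 to 27 at week 8 and 2 to 5 at week 20, 14 to 18 changes of the effect between weeks 4 and 8 and 22 to 27 between weeks 8 and 20. In knockout livers it gave 3 to 8 calls between weeks 4 and 8 and 23 to 27 between weeks 8 and 20, and in control livers 11 to 16 and 0. The causes were not tested. Genes above background on few arrays (Fmod, Tagln) have the least signal to show a difference.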
